A study of Mus musculus with 6 samples.

Results

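The Kcn genes, which encode the pore and auxiliary subunits of most potassium channels, were examined in whole retinas 2 days after the optic nerve was crushed. Members were all genes in the deposited tables whose symbol starts with Kcn, and those with a mean RPKM (exon reads divided by exon length and by the reads mapped to genes) above 0.3 over the 6 samples were described. Of 95 Kcn symbols among 35485 genes listed, 62 met this limit. The animals were wild type C57BL/6 mice, male and aged 12 weeks. In the ONC (optic nerve crush) group the nerve was squeezed with forceps for 10 seconds at 2 mm behind the eye, and in the sham group it was exposed without being crushed. Each group had 3 samples, and each sample combined RNA from 6 retinas of different mice, so that the spread given below is between pools and not between single animals.

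Potassium channels let potassium leave the cell and so set the resting potential and end each action potential. The voltage-gated (Kv) channels open on depolarisation and are built from pore subunits with cytoplasmic or membrane-bound auxiliary subunits. Inwardly rectifying (Kir) channels pass current best near the resting potential, K2P (two-pore domain) channels carry background leak current, and the calcium-activated channels open when intracellular calcium rises. In the retina, the silent subunit Kcnv2 (Kv8.2) is part of a channel of photoreceptor inner segments, Kcnj10 (Kir4.1) is the main potassium channel of Müller glia, and retinal ganglion cells (RGCs), the neurons whose axons run in the optic nerve, fire trains of action potentials that depend on Kv1, Kv3 and Kv7 channels.

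Levels are given below as TMM-normalised RPKM, that is, exon reads divided by exon length and by the library's exon reads on the tested genes after scaling by TMM (trimmed mean of M-values). Exon reads per sample numbered 17343945 to 18349331 in the sham group and 20019818 to 20358008 in the ONC group, and exons held 70.9 to 76.6% of the reads on genes in sham and 78.5 to 80.4% in ONC. Changes are log2 fold changes of ONC over sham from the quasi-likelihood test of edgeR, run on the exon reads of 13670 genes, and FDR is the Benjamini-Hochberg adjusted p over all of them. A gene passed the test at an FDR under 0.1, and it was called a DEG (differentially expressed gene) when its fold change was also above 1.5, the limits used in the study. Of 10 RGC markers, 8 passed as lower in ONC (Nefh, Nefl, Nefm, Sncg, Rbpms, Pou4f1, Pou4f2 and Thy1) and Slc17a6 passed as higher. The summed RGC marker level was 572 to 639 in sham and 401 to 433 in ONC, and no marker was at 0. In whole retina RNA, fewer cells of a type and less RNA per cell cannot be told apart, and the part of RGC loss or RGC transcript loss in the changes below was not tested. Of the other lists of markers, Sag and Pde6b (2 of 6 for rods), C1qa (1 of 6 for microglia) and Cryaa (1 of 5 for lens) passed as higher and Calb1 (1 of 4 for horizontal cells) as lower, while no marker of cones, bipolar cells, amacrine cells, Müller glia, astrocytes, pigment epithelium, vessels or muscle passed.

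Most Kcn genes had somewhat lower values in ONC than in sham, and Kcnd2 stood out with a large fall. Among the 62 described genes, 13 fell (21.0%, against 3.72% of all genes tested) and Kcnv2 alone rose (1.61%, against 2.38% of all genes). A total of 2 genes, Kcnd2 and Kcnj5, fell as DEGs (3.23%, against 0.834% of all genes), and none rose as a DEG (0.827% of all genes did). The log2 fold change was below 0 for 50 of the 62 genes (80.6%, against 47.7% of all genes), with a median of -0.20 against 0.01 over all genes. All 3 ONC samples lay below all 3 sham samples for 24 genes (38.7%, against 10.8% of all genes), and all 3 lay above for Kcnv2 and Kcnt1 (3.23%, against 11.0%). With reads scaled by all reads on genes, introns included, the median of all genes was 0.13, and 39 Kcn genes were then below 0, 9 passed as lower and Kcnv2 still passed as higher. Relative to the median of all genes tested, 50 of the 62 lay lower.

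**Figure D1:**
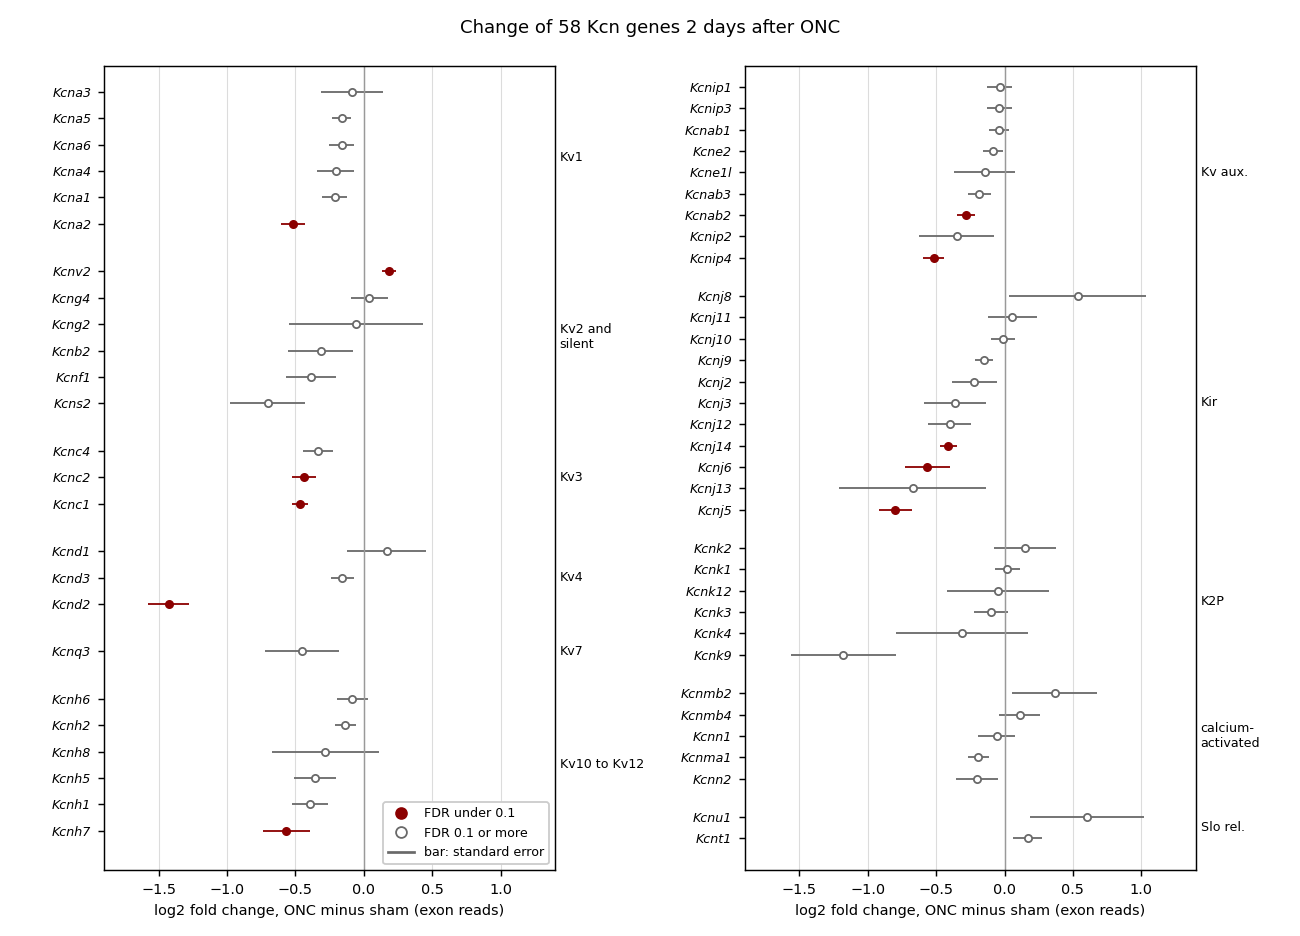
Log2 fold change of ONC over sham on exon reads for 58 of the 62 Kcn genes, grouped by subfamily, with bars for the standard error and filled points for an FDR under 0.1. Filled points lie left of 0 for 10 genes and right of 0 for Kcnv2, and Kcnd2 lies farthest left at -1.43.

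By subfamily, 8 of 29 described Kv pore subunits fell (27.6%, against 3.72% of all genes tested) and 1 rose (3.45%, against 2.38%). Their median log2 fold change was -0.28. Of the 9 Kv auxiliary subunits 2 fell (22.2%), with a median of -0.15. Among the 11 Kir genes 3 fell (27.3%), with a median of -0.36. With reads scaled by all reads on genes these medians were -0.15, -0.0253 and -0.24. None of the 6 described K2P genes and none of the 5 calcium-activated channel genes passed, while 6.09% of all genes did, so that no gene passing in sets this small is near the background. Their medians of -0.07 and -0.06 became 0.05 and 0.06 when reads were scaled by all reads on genes. At an unadjusted p under 0.05 the edgeR test gave 1 gene of each, against 16.7% of all genes, and the DESeq2 Wald test passed 1 K2P gene, Kcnk9. The difference between subfamilies was not tested, and small subfamilies give medians that rest on few genes.

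The summed level of the 62 genes was 1159, 1225 and 1191 in sham replicates 1 to 3. In ONC replicates 1 to 3 it was 1092, 989 and 1018, so that with TMM scaling every ONC sample was below every sham sample. With division by all reads on genes instead, introns included, the groups overlapped in the summed level. Kcnj14 made up 22.7, 24.5 and 23.3% of this sum in sham and 20.5, 20.7 and 20.0% in ONC. The share of Kcnv2 was 12.4, 11.3 and 11.9% in sham and 15.0, 15.97 and 15.6% in ONC. The groups did not overlap for either share, that of Kcnj14 being lower and that of Kcnv2 higher in ONC.

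**Figure D2:**
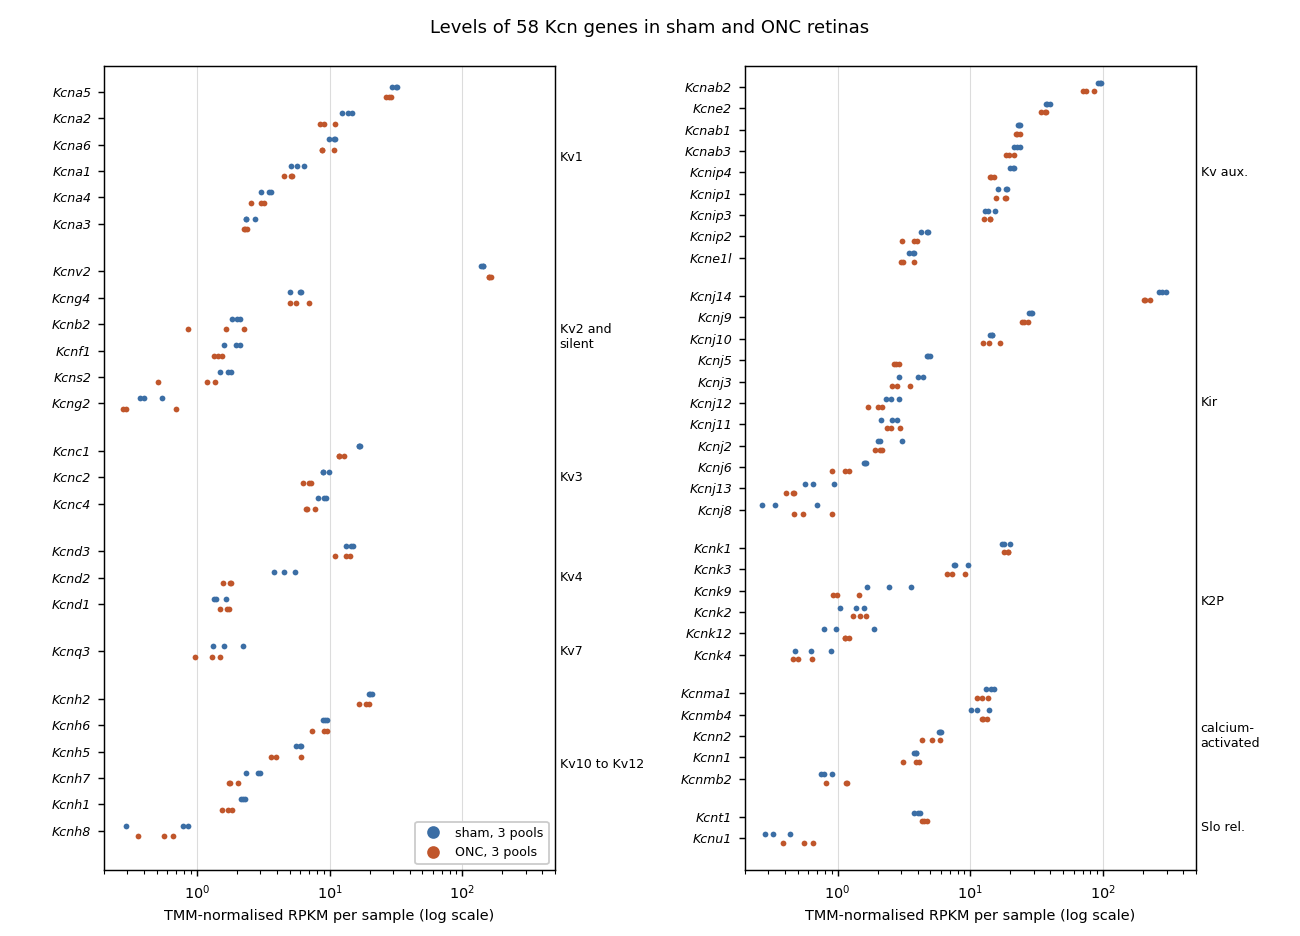
TMM-normalised RPKM on a log scale of 58 of the 62 Kcn genes in each of the 3 sham and 3 ONC pools, grouped by subfamily. Kcnj14 and Kcnv2 lie farthest right, Kcng2 and Kcnj8 are among the lowest, and the groups lie apart for Kcnd2 and Kcnj5.

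Kcnd2 (Kv4.2), a pore subunit of the A-type current that activates below threshold and delays firing, had the largest fall among the described genes. Its level was 3.84, 5.50 and 4.53 in sham replicates 1 to 3 and 1.57, 1.78 and 1.81 in ONC replicates 1 to 3, from 305, 455 and 350 reads in sham and 141, 166 and 171 in ONC. Every ONC sample was far below every sham sample, and the log2 fold change was -1.43 (SE 0.15, FDR 5.41e-06), a 2.69-fold fall. Kcnj5 (Kir3.4, or GIRK4), a subunit of the inward rectifiers opened by G protein beta-gamma subunits, was the other DEG. Its level was 4.79, 4.95 and 4.69 in sham and 2.75, 2.90 and 2.64 in ONC, without overlap and with little spread in either group. The log2 fold change was -0.80 (SE 0.12, FDR 0.000365), a 1.74-fold fall. Both calls were kept without any single sample, where the highest FDR was 0.000262 for Kcnd2 and 0.00428 for Kcnj5. With limma on log2(RPKM + 1) Kcnj5 still passed, but at a log2 fold change of -0.499 it was no longer a DEG.

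The bases just before the RefSeq start of these genes are shown because Kcnd2 and Kcnj5 were the described genes that changed by the most among those that passed. The files place Kcnd2 on chromosome 6 from 21216109 to 21729805 with 6 exons and Kcnj5 on chromosome 9 from 32314783 to 32344237 with 4 exons. These positions match GRCm38. The 250 bases before the start in RefSeq on GRCm38.p6 are chr6:21215096-21215345 on the plus strand for Kcnd2 and chr9:32344345-32344594 on the minus strand for Kcnj5, and the RefSeq start lies 763 and 107 bases from the gene end that the files give. Capitals mark GC boxes (GGGCGG).
Kcnd2: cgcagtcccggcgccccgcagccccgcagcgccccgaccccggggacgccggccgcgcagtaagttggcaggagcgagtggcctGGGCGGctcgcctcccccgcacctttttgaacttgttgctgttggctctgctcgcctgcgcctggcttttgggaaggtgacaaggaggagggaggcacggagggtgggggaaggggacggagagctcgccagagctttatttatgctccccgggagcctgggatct
Kcnj5: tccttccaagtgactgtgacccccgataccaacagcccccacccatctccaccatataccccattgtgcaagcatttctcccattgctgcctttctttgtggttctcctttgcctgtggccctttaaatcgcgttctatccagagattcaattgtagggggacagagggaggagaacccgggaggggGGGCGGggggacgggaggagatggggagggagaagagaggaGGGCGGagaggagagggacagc
The Kcnd2 stretch has a GC content of 68.8% and a single GC box that begins 166 bases before the start. In Kcnj5 the GC content is 58%, and GC boxes begin 63 and 22 bases before the start. The median GC content over 32851 promoter stretches of this length is 52.4%, and 32.7% of them hold a GC box on either strand. Neither stretch holds, on either strand, a TATA box (TATAAA, in 12.4% of all stretches), a cyclic AMP response element (TGACGTCA, 1.55%), an AP-1 site (TGANTCA, 6.75%) or an E box (CACGTG, 6.02%). RefSeq stretches were matched by symbol for 43 of the 62 genes, and 29 of their 61 stretches (47.5%) hold a GC box.

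The other Kv4 genes did not pass. Kcnd3 (Kv4.3) was the most abundant, at 15.0, 14.5 and 13.2 in sham and 14.2, 13.2 and 10.9 in ONC, with overlapping groups (log2 fold change -0.16, SE 0.08, FDR 0.361), and it passed only without ONC replicate 1 (FDR 0.0431). Kcnd1 (Kv4.1) was lower in level, with means of 1.47 in sham and 1.65 in ONC (log2 fold change 0.17, SE 0.29, FDR 0.820). The ratio of Kcnd2 to Kcnd3, formed after the values were seen, was 0.256, 0.379 and 0.343 in sham and 0.110, 0.135 and 0.166 in ONC. It does not depend on scaling, and the groups did not overlap. Channels of the Kv4 type carry 2 kinds of auxiliary subunit, the calcium-binding KChIPs (Kcnip genes) and the DPP-like proteins. Kcnip4 (chromosome 5, 48389503 to 49524904) fell from 21.2, 21.1 and 20.0 in sham to 14.1, 14.2 and 15.2 in ONC, without overlap (log2 fold change -0.52, SE 0.08, FDR 0.000235), and the call was kept without any single sample. Kcnip1 and Kcnip3, at mean sham levels of 17.9 and 14.0, had log2 fold changes of -0.04 and -0.04, and Kcnip2 at 4.60 had -0.35 (SE 0.28, FDR 0.557). The ratio of Kcnip4 to Kcnip1, also formed after the values were seen, was 1.31, 1.12 and 1.07 in sham and 0.903, 0.761 and 0.840 in ONC. Of the DPP-like partners, Dpp10 fell from 6.65, 5.34 and 5.90 to 2.94, 2.99 and 2.97 (log2 fold change -1.01, SE 0.12, FDR 2.16e-05), a 2.01-fold fall. Dpp6, at mean levels of 19.2 and 18.7, had a log2 fold change of -0.04 (SE 0.07, FDR 0.839), with overlapping groups.

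**Figure D3:**
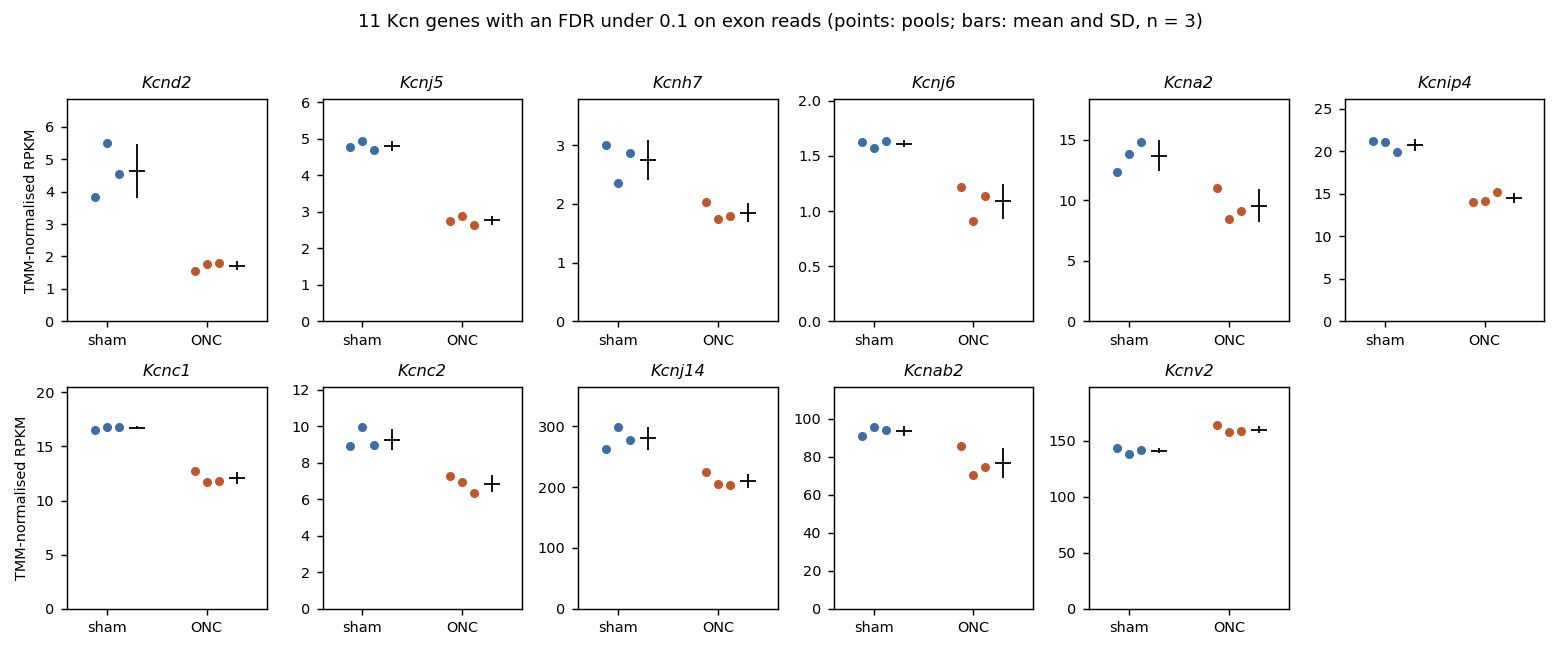
TMM-normalised RPKM in each pool of 11 Kcn genes with an FDR under 0.1, with each vertical axis starting at 0 and black marks for the mean and SD of 3 pools. The ONC points lie below the sham points for 10 genes and above them for Kcnv2.

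Kv3 channels repolarise the membrane quickly and so permit high firing rates. Kcnc1 (Kv3.1; chromosome 7, 46396468 to 46438704) was at 16.5, 16.8 and 16.8 in sham and 12.8, 11.7 and 11.8 in ONC, a narrow spread in both groups (log2 fold change -0.47, SE 0.06, FDR 6.49e-05). Kcnc2 (Kv3.2) was at 8.91, 9.98 and 8.96 in sham and 7.27, 6.96 and 6.35 in ONC (log2 fold change -0.44, SE 0.08, FDR 0.00402). The Kcnc2 call was kept without any single sample but lost with limma at either pseudocount (highest FDR 0.139). Kcnc4 (Kv3.4), with means of 8.89 in sham and 7.05 in ONC, did not pass (log2 fold change -0.34, SE 0.11, FDR 0.114).

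Of the 6 Kv1 genes, all had log2 fold changes below 0 (5 with reads scaled by all reads on genes) and 1 fell. Kcna2 (Kv1.2; chromosome 3, 107101567 to 107115005), a subunit of the channels that flank the nodes of myelinated axons, was at 12.3, 13.9 and 14.8 in sham and 11.1, 8.42 and 9.14 in ONC. The groups did not overlap (log2 fold change -0.52, SE 0.09, FDR 0.000976), and the call was kept without any single sample. Kcna5 (Kv1.5) was the most abundant of the Kv1 genes, at 29.7 to 32.4 in sham and 26.6 to 28.9 in ONC, without overlap but short of the threshold (log2 fold change -0.16, SE 0.07, FDR 0.223). Kcna6 (Kv1.6) was at 9.93 to 11.0 in sham and 8.72 to 10.8 in ONC (log2 fold change -0.16, SE 0.09, FDR 0.372), and without ONC replicate 1, the highest of its group, it passed with an FDR of 0.0281. The remaining Kv1 genes, Kcna1, Kcna3 and Kcna4, had log2 fold changes of -0.21, -0.09 and -0.20, none of which passed.

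Among the described genes the only rise was that of a silent subunit. Kcnv2 (Kv8.2; chromosome 19, 27322619 to 27337179), which forms no channel by itself and joins other pore subunits, was at 143, 139 and 142 in sham and 164, 158 and 159 in ONC, higher in 3 of 3 ONC samples (log2 fold change 0.18, SE 0.05, FDR 0.0554). The rise of Kcnv2 kept its direction but had an FDR of 0.146, 0.251 and 0.177 without sham replicates 1, 2 and 3, and of 0.111 and 0.154 without ONC replicates 2 and 3. Summed rod markers overlapped between the groups, at 25545 to 27156 in sham and 25687 to 28059 in ONC, while 2 of the 6 rose. The other silent subunits were far less abundant, and Kcng4 (Kv6.4) at means of 5.71 and 5.88 had a log2 fold change of 0.04 (SE 0.13, FDR 0.916).

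Kv7 channels carry the M current, a slow current that restrains repetitive firing. Kcnq3 (Kv7.3) was at 1.61, 1.32 and 2.23 in sham and 1.49, 0.967 and 1.30 in ONC, with overlapping groups (log2 fold change -0.45, SE 0.27, FDR 0.423). Kcnq5, at a mean RPKM of 0.108, was below the limit for description.

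All 6 genes of the Kv10 to Kv12 group (EAG, ERG and ELK channels) had log2 fold changes below 0 (5 with reads scaled by all reads on genes), with a median of -0.32. Kcnh7 (ERG3) fell from 3.001, 2.36 and 2.87 in sham to 2.03, 1.74 and 1.79 in ONC (log2 fold change -0.57, SE 0.17, FDR 0.0752). The groups did not overlap, but the FDR was 0.215 and 0.239 without sham replicates 1 and 3. It was 0.249 and 0.220 without ONC replicates 2 and 3. The Kcnh7 call was also lost with reads scaled by all reads on genes and with limma at either pseudocount (highest FDR 0.172). The most abundant was Kcnh2 (ERG1), at 19.7 to 20.8 in sham and 16.5 to 19.9 in ONC (log2 fold change -0.13, SE 0.07, FDR 0.384), which passed only without ONC replicate 1 (FDR 0.0910). Kcnh5 (EAG2) was at 5.94, 5.54 and 6.06 in sham and 6.08, 3.63 and 3.97 in ONC (log2 fold change -0.36, SE 0.15, FDR 0.237). Its ONC replicate 1 was above every sham sample, and without it the FDR was 0.00151. Kcnh6 (ERG2) was at 8.88 to 9.54 in sham and 7.41 to 9.57 in ONC (log2 fold change -0.08, SE 0.11, FDR 0.770).

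Outside the KChIPs, the cytoplasmic Kv beta subunit Kcnab2 was the most abundant auxiliary subunit and the one that fell, from 90.7, 95.7 and 94.2 in sham to 85.6, 70.4 and 74.8 in ONC (log2 fold change -0.28, SE 0.07, FDR 0.0172). Without sham replicate 2 its FDR was 0.131, and with reads scaled by all reads on genes it was 0.158. The Kcnab2 call was also lost with limma at either pseudocount (highest FDR 0.208). Kcne2, a small membrane subunit, was at 37.0 to 39.9 in sham and 34.2 to 37.3 in ONC (log2 fold change -0.08, SE 0.07, FDR 0.621). Kcnab1 was at 22.9 to 23.8 and 22.1 to 23.5 (log2 fold change -0.04, SE 0.07, FDR 0.820). All 9 auxiliary genes had log2 fold changes below 0, and 5 did with reads scaled by all reads on genes.

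Among the Kir genes, 9 of 11 had log2 fold changes below 0, and 8 with reads scaled by all reads on genes. Kcnj14 (Kir2.4; chromosome 7, 45816467 to 45824747), an inward rectifier, had the highest level of all Kcn genes and fell from 263, 300 and 278 in sham to 224, 205 and 203 in ONC (log2 fold change -0.41, SE 0.06, FDR 0.000235). The groups did not overlap, and the call was kept without any single sample and on uniquely mapped reads, which made up 88.2% of its exon reads. The G protein-gated subfamily held the other Kir falls. Beside Kcnj5, Kcnj6 (GIRK2) was at 1.62, 1.57 and 1.63 in sham and 1.22, 0.912 and 1.13 in ONC (log2 fold change -0.56, SE 0.17, FDR 0.0653). Its call was lost without any of sham replicates 1, 2 and 3 (FDR 0.139, 0.160 and 0.199) or ONC replicates 2 and 3 (FDR 0.282 and 0.153). The Kcnj6 call was also lost with reads scaled by all reads on genes and with limma at either pseudocount (highest FDR 0.258). Kcnj9 (GIRK3), the most abundant of these subunits at 27.7 to 29.2 in sham and 24.7 to 27.1 in ONC, did not overlap between groups but did not pass (log2 fold change -0.15, SE 0.07, FDR 0.254). Kcnj3 (GIRK1), named here to complete the group after its values were seen, was at 2.90 to 4.42 in sham and 2.58 to 3.49 in ONC (log2 fold change -0.36, SE 0.23, FDR 0.450).

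Kir genes that mark other retinal cells did not pass. Kcnj10 of Müller glia was at 14.0, 14.5 and 14.7 in sham and 16.6, 12.5 and 13.7 in ONC (log2 fold change -0.01, SE 0.09, FDR 0.960), a value whose sign changed with the scaling. The 6 Müller glia markers had a median log2 fold change of -0.01. Kcnj13 (Kir7.1) of the pigment epithelium was at 0.567 to 0.934 in sham and 0.412 to 0.470 in ONC (log2 fold change -0.67, SE 0.54, FDR 0.568), with 85.2% unique reads and an overlap with Gigyf2, whose reads cannot be told apart from it without strand. Kcnj8 (Kir6.1) of vascular mural cells was at 0.269 to 0.704 in sham and 0.469 to 0.900 in ONC (log2 fold change 0.53, SE 0.50, FDR 0.637).

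Of the 6 described K2P genes, Kcnk9 (TASK-3), an acid-sensitive leak channel, changed most and just missed the threshold. It was at 1.66, 3.55 and 2.44 in sham and 0.919, 1.45 and 0.995 in ONC, from 35, 78 and 50 reads in sham and 22, 36 and 25 in ONC. The lowest sham sample lay above the highest ONC sample (log2 fold change -1.18, SE 0.38, FDR 0.102). It passed in 8 of the alternatives with all samples and without sham replicate 1, where the FDR was 0.0632. The abundant leak channels showed no such difference. Kcnk1 (TWIK-1) was at 17.3 to 20.0 in sham and 17.8 to 19.2 in ONC (log2 fold change 0.02, SE 0.09, FDR 0.934), and Kcnk3 (TASK-1) at 7.50 to 9.57 and 6.64 to 9.12 (log2 fold change -0.10, SE 0.13, FDR 0.743).

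The 5 calcium-activated channel genes overlapped between the groups, as 78.2% of all genes did. Kcnma1, the pore subunit of the large-conductance BK channel, was at 13.1, 15.0 and 14.4 in sham and 12.3, 11.2 and 13.7 in ONC (log2 fold change -0.19, SE 0.08, FDR 0.202). Its auxiliary subunit Kcnmb4 was at 10.2 to 13.8 in sham and 12.3 to 13.3 in ONC (log2 fold change 0.11, SE 0.15, FDR 0.763), with 84.3% unique reads. Kcnn2 (SK2), a small-conductance channel, was at 5.77 to 6.02 in sham and 4.29 to 5.95 in ONC (log2 fold change -0.20, SE 0.15, FDR 0.552), with 70.1% unique reads. Of the related Slo channels, the sodium-activated Kcnt1 was at 4.01, 3.79 and 4.21 in sham and 4.31, 4.44 and 4.75 in ONC, higher in 3 of 3 samples without passing (log2 fold change 0.17, SE 0.11, FDR 0.444). Kcnu1 (Slo3), near the limit for description at 0.284 to 0.438 in sham and 0.386 to 0.650 in ONC, had a log2 fold change of 0.60 (SE 0.42, FDR 0.502).

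Among proteins that place or accompany these channels, 3 of 6 clustering and scaffold genes fell and none rose. Of all genes tested, 3.72% fell and 2.38% rose. Lgi3 and Adam22, which belong to the protein complex around Kv1 channels, had log2 fold changes of -0.73 (SE 0.12, FDR 0.000814) and -0.32 (SE 0.07, FDR 0.00757). The call of Adam22 was lost with reads scaled by all reads on genes (log2 fold change -0.19, FDR 0.155) and with limma at either pseudocount (FDR 0.281 and 0.288). Amigo1, a membrane partner of Kv channels, had a log2 fold change of -0.27 (SE 0.08, FDR 0.0593). Its call was lost without sham replicate 2 or 3 or ONC replicate 2 or 3, where the highest FDR was 0.280. The Amigo1 call was also lost with reads scaled by all reads on genes (FDR 0.308) and on total gene reads (FDR 0.145). With limma at either pseudocount the FDR was 0.373 and 0.376. Cntnap2 and Dlg4 had log2 fold changes of -0.04 and 0.05, and Lgi1 had -0.44 (FDR 0.107). Of the 4 HCN genes, which encode the cation channels opened by hyperpolarisation, Hcn2 fell from 10.0, 9.85 and 10.9 to 8.55, 7.52 and 7.65 (log2 fold change -0.37, SE 0.10, FDR 0.0469). That call was lost in 4 of the 6 fits without 1 sample, with an FDR of at most 0.220. These left out sham replicate 2 or 3 or ONC replicate 2 or 3. The Hcn2 call was also lost with reads scaled by all reads on genes (FDR 0.178) and with limma at either pseudocount (FDR 0.158 and 0.162). None of the 2 BK gamma subunits tested and none of the 2 sulphonylurea receptors passed.

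Reads on introns gave a second readout that the choice of members did not use, although it came from the same libraries. Of the 62 genes, 49 had enough intron reads to be tested among 11437 genes. On introns 2 of the 49 fell as DEGs, against 2.56% of all genes tested, and none rose, against 0.551%. The median intron log2 fold change was -0.25 against 0.02 over all genes, and 33 of the 49 were below 0, against 47.9% of all genes. With scaling by the sum of intron reads the median of all genes was 0.20, and over all genes 76 fell and 100 rose as DEGs, where 293 had fallen and 63 had risen. Kcnip4 introns were at 661, 718 and 1218 CPM (counts scaled to the intron reads of the tested genes after TMM) in sham and 591, 373 and 508 in ONC (log2 fold change -0.82, SE 0.22, FDR 0.0868), and these reads cannot be told apart from those of the 3 other genes that the files place across its span (5730480H06Rik, Gm19031 and Gm19932). The groups did not overlap, but the FDR was 0.104 with DESeq2 size factors and 0.103 with scaling by the sum of intron reads. It was 0.126 and 0.193 without sham replicates 2 and 3 and 0.385 and 0.246 without ONC replicates 2 and 3. Sham replicate 3 had the lowest exon share of all samples, and the part of intron content in these differences was not tested. Kcnd2 introns were at 30.8, 41.1 and 71.3 CPM in sham and 37.0, 16.8 and 24.7 in ONC (log2 fold change -0.88, SE 0.32, FDR 0.174). Kcnj5 introns held only 16, 20 and 27 reads in sham and 2, 18 and 8 in ONC (log2 fold change -1.13, SE 0.67, FDR 0.388). Both had the direction of the exon reads, but neither passed and the groups overlapped for both. For Kcnv2 the intron log2 fold change was 0.02 (SE 0.18, FDR 0.970).

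**Figure D4:**
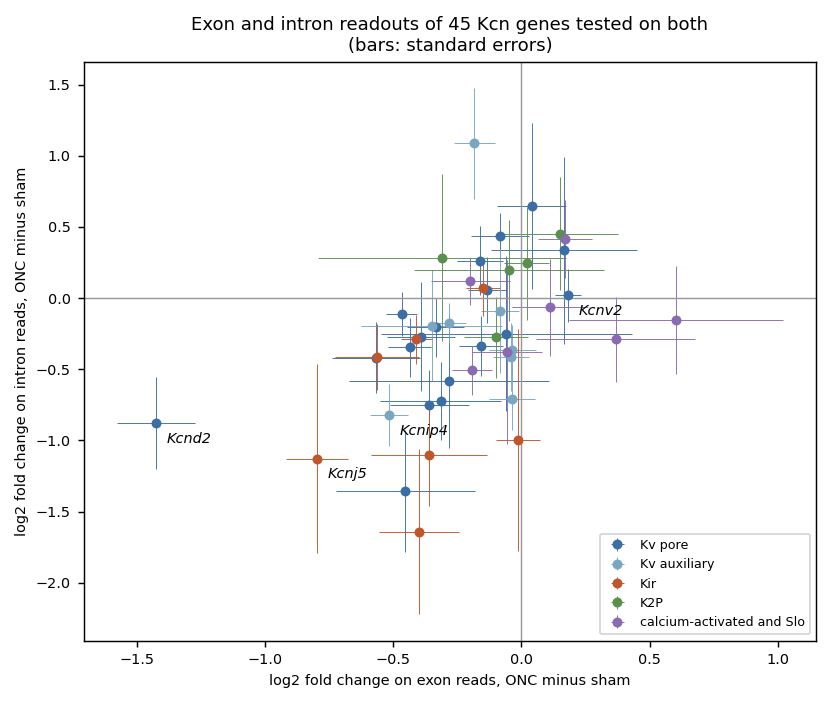
Log2 fold change of ONC over sham on exon reads (horizontal axis) and on intron reads (vertical axis) for 45 of the 49 Kcn genes tested on both, coloured by subfamily, with bars for standard errors. Kcnd2 and Kcnj5 lie farthest left among these genes, and 31 of the points lie below 0 on the intron axis, with wide bars for many of them.

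Of the 13 falls, 8 were kept in each of the 6 fits that left out a sample, and 6 of these (Kcnd2, Kcnj5, Kcnc1, Kcnj14, Kcnip4 and Kcna2) were also kept under all 13 other alternatives tried. The other 5, among them Kcnab2, Kcnh7 and Kcnj6, were lost without at least 1 sample. Without ONC replicate 1, which had the highest ratio of chi-square to degrees of freedom against both other ONC samples, 21 genes passed as lower and 7 were DEGs. Without sham replicate 1, 4 genes were DEGs (Kcna2, Kcnd2, Kcnj5 and Kcnk9).

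A total of 33 Kcn symbols lay below the limit for description, and 5 of these had no exon read in any sample. Of the 5, 1 has no exon in the files and could hold no such read. The described gene nearest to the limit was Kcng2, with a mean RPKM of 0.331, at levels of 0.549, 0.371 and 0.397 in sham and 0.699, 0.278 and 0.291 in ONC. On the other side, Kcns3 had a mean RPKM of 0.282, at levels of 0.150, 0.306 and 0.635 in sham and 0.347, 0.431 and 0.346 in ONC. Values near the limit thus rested on few reads, from 16 to 39 per sample for Kcng2 and from 8 to 33 for Kcns3.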

How the data were processed

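RNA-seq of 3 ONC and 3 sham samples was grouped by the treatment in the sample labels. The authors mapped reads with CLC Genomics Workbench 6.0.1 and deposited, per sample and gene, counts of total and unique reads on exons and on whole genes, without normalization. The deposited RPKM values equal total exon reads divided by exon length and by the reads on genes, introns included (largest difference 0.0005), and were used to choose members. The paper names mm9 (NCBI37), but all 95 Kcn positions overlap the RefSeq GRCm38.p6 gene of that symbol. Whether counting used strand is not given in the sources used here. The members and lists were chosen with earlier results of these data known.

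Total exon reads were tested in R 4.3.3 with edgeR 4.0.16 (TMM, quasi-likelihood test, ONC against sham without covariates), for genes whose mean RPKM exceeded 0.3 in either group. The standard error was the log2 fold change divided by the square root of F. Intron reads were total gene reads minus total exon reads, tested where at least 3 samples had at least 10. Steps were tested on simulated data. Alternatives were DESeq2 1.42.0, limma 3.58.1 on log2(RPKM + 0.1) and log2(RPKM + 1), other scalings, filters and read classes, the replicate number as a block, and fits without each sample. Related genes outside the Kcn symbols were also refitted, and marker lists were not. Named genes were those with an FDR under 0.1, the 3 most abundant of each subfamily, the smallest p where a subfamily had none, those called on introns, those nearest to the RPKM limit and known cell type markers, except that a few members are not reported here and enter only the counts, sums and medians. Exon depth leaves genes near the limit on few reads per sample. Nothing states that pools of a group came from separate days, so p-values measure the spread between pools.

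Replicates of a group differed by more than counting noise (chi-square per degree of freedom 4.54 to 13.7), so none was a repeat of another. Python 3.11.15, pandas 2.3.3 and matplotlib 3.10.9 were used for tables and figures. Subfamily counts and medians were not tested, and no amino acid sequence was used here.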

Additional observations from a re-analysis of the deposited data

Results flagged for a closer look

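Kcnk10 (TREK-2), a mechanically gated leak channel, lay below the level for description, with a mean RPKM of 0.231, but had more reads in ONC than in sham. It had 7, 5 and 3 exon reads in sham replicates 1 to 3 and 15, 30 and 28 in ONC replicates 1 to 3. The log2 fold change was 2.04 (SE 0.62, edgeR FDR 0.0734). It was tested because its ONC mean alone exceeded the RPKM limit, so it had to be higher in ONC to be tested at all. Without the filter on RPKM the FDR was 0.103, and its counts are too low for a firm value.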

How the results depend on the processing

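Of 742 refitted log2 fold changes of 40 gene results, 646 kept direction and side of the FDR limit of 0.1, 52 lost and 17 gained it, and 27, all of genes that did not pass, changed sign. DEGs on exon reads numbered 2 as reported, 1 with limma on log2(RPKM + 1), 4 with no RPKM filter, 8 on total gene reads, 14 with no fold limit, and 2 to 7 without 1 sample (7 without ONC replicate 1). Genes lower at an FDR under 0.1 numbered 13, 7 with limma at either pseudocount, and 9 to 21 without 1 sample. Genes higher numbered 1, and 0 to 1 without 1 sample. Samples with the same replicate number did not deviate together (correlations -0.047, -0.033 and 0.0026). With 3 samples per group such correlations cannot show whether the samples were handled in pairs. With the replicate block 0 genes passed as higher (Kcnv2 FDR 0.158) while 13 passed as lower and 2 were DEGs. DEGs on intron reads numbered 2, 1 with DESeq2 size factors, 1 with scaling by the sum of intron reads, 4 with the DESeq2 Wald test, and 0 to 11 without 1 sample. The count was 0 without sham replicate 2, ONC replicate 2 or ONC replicate 3 and 11 without sham replicate 1. Over all genes, intron DEGs lower and higher numbered 293 and 63 as reported, 76 and 100 with scaling by the sum of intron reads, 692 and 171 without sham replicate 1, 66 and 18 without sham replicate 3, 0 and 0 without sham replicate 2, 3 and 0 without ONC replicate 2 and 1 and 0 without ONC replicate 3.

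Median log2 fold changes were for Kv pore subunits -0.28 and -0.14 with limma on log2(RPKM + 1), and for Kir -0.36, -0.22 with limma on log2(RPKM + 0.1) and -0.17 on log2(RPKM + 1). For Kv auxiliary subunits they were -0.15, -0.0253 with scaling by all reads on genes, -0.0272 and -0.0199 with limma at the smaller and the larger pseudocount, and -0.23 to -0.0946 without 1 sample. For calcium-activated channels they were -0.06, 0.0637 with scaling by all reads on genes, 0.0545 and 0.0433 with limma, and -0.11 to 0.04995 without 1 sample. Scaling by all reads on genes moved the median of all genes from 0.01 to 0.13 and the all-gene DEGs from 113 higher and 114 lower to 263 and 87.

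Sign changed with scaling by all reads on genes for Kcnab1 (0.0809), Kcne2 (0.0384), Kcnh6 (0.0345), Kcnj10 (0.107) and Kcnk3 (0.016), with limma at the smaller pseudocount for Kcnab1 (0.0808), Kcne2 (0.040), Kcnh6 (0.031), Kcnj10 (0.10) and Kcnk3 (0.0202), and at the larger for Kcnab1 (0.0768), Kcne2 (0.0387), Kcnh6 (0.0277), Kcnj10 (0.093) and Kcnk3 (0.0171). It changed on total gene reads for Kcnh6 (0.17) and Kcnj10 (0.0195), and with the sum of exon reads for Kcnj10 (0.0105). Without 1 sample the values ran from -0.11 to 0.14 for Kcng4, -0.16 to 0.0136 for Kcnh6, -0.13 to 0.0689 for Kcnj10, -0.0266 to 0.0864 for Kcnk1 and -0.24 to 0.0234 for Kcnk3. The cause was not tested.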
